A study of Mus musculus with 2 samples.

Results

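The NMDA receptor subunit genes were taken by name from the gene annotation (GENCODE M21) as Grin1, Grin2a, Grin2b, Grin2c, Grin2d, Grin3a and Grin3b. All 7 were found, among 21938 protein-coding genes of the annotation on the autosomes, X and Y. Their open chromatin was read from DNase-seq of the left cerebral cortex of 2-month-old male B6CASTF1/J mice, the offspring of a cross between the C57BL/6J and CAST/EiJ strains. In DNase-seq, DNase I is let into nuclei, where it cuts DNA left free by nucleosomes and other proteins, and sequencing locates the cuts. The 2 samples form 1 group with no treatment named in the labels, numbered as biological replicates 1 and 2 and labelled as separate animals that share a donor record for the strain. With a single tissue and age, no contrast between conditions and no test across groups was possible.

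NMDA receptors are glutamate-gated cation channels that pass calcium once depolarization lifts their magnesium block, and they drive synaptic plasticity in the cortex. Grin1 encodes GluN1, the obligatory subunit that binds glycine or D-serine. Grin2a to Grin2d encode the glutamate-binding GluN2 subunits, which set channel kinetics, and Grin3a and Grin3b encode the glycine-binding GluN3 subunits. In forebrain, GluN2B is known as the early form and GluN2A as the form that rises after birth, whereas GluN2C is best known from cerebellar granule cells, GluN2D from interneurons and brainstem, and GluN3B from motor neurons.

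Replicate 1 had 63928 peaks and replicate 2 had 76440, with 44745 regions shared by both. The depth of the libraries is unknown. Heights below are the signal values the authors gave each peak, with a scaling not given in the sources used here. Cortical excitatory neuron markers had a promoter peak in both replicates for 3 of 6 genes (Camk2a, Emx1 and Neurod6) and in replicate 1 for 6 of 6. Inhibitory neuron markers had one in both for 1 of 5 and in replicate 1 for 4 of 5, and both longer lists held 5 of 6 and 4 of 5 of these groups. Over all coding genes 56.2% had one in both replicates. The counts in both replicates were 4 of 5 for astrocytes, 3 of 5 for oligodendrocytes, 1 of 5 for microglia and 1 of 5 for endothelium. For cerebellar granule cells the count was 1 of 4. There Cbln3 had a peak in both (2.08 and 0.945), and Gabra6, Barhl1 and Atoh1 had none in either replicate. The part that the mix of cells plays in the results was not tested.

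At the promoters, 4 of the 7 genes were open in both animals: Grin1, Grin2a, Grin2b and Grin3a. Grin2c, Grin2d and Grin3b had no promoter peak in either animal. A promoter window reached 500 bp to either side of each annotated transcription start site (TSS), and a gene was called open where each replicate had a peak in such a window. Over all protein-coding genes the share called was 56.2% (12324 of 21938), so the 4 of 7 lies near the background and says nothing particular to the family. The same 4 genes had a peak in each replicate taken alone, where 61.6% of all genes had one in replicate 1 and 57.1% in replicate 2. They were also the 4 called from the longer, looser peak list of each replicate, against 61.0% of all genes. In bulk tissue, fewer cells with an open promoter and less opening per cell cannot be told apart.

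**Figure D1:**
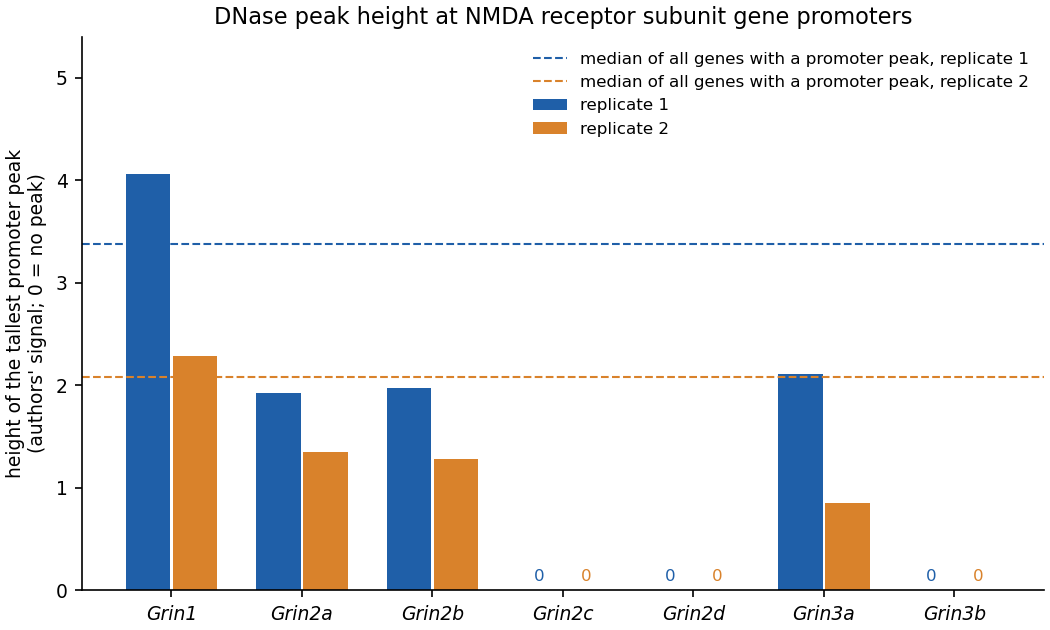
Height of the tallest peak within 500 bp of any TSS (authors' signal, y axis) for the 7 subunit genes (x axis) in replicate 1 (blue bars) and replicate 2 (orange bars), with 0 where there was no peak. Dashed lines are the medians over all genes with a promoter peak, 3.38 in replicate 1 and 2.08 in replicate 2. Only Grin1 stands above them.

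Grin1, the gene of the obligatory subunit (chr2:25291181-25319187, minus strand), had the tallest promoter of the 7 in both replicates. Its peak had a height of 4.06 in replicate 1 and 2.29 in replicate 2. These values lay at percentiles 58.3 and 54.4 of all genes with a promoter peak in that replicate, so Grin1 stood close to the middle of open promoters. Both peaks lay over the 5′-most TSS in 1 shared region (chr2:25319061-25319360) that covered 5 of the gene's 9 annotated TSSs. This region held 12.7 CpG per 100 bp. Within 500 bp of the 5′-most TSS the observed over expected CpG ratio was 0.975. All coding genes were put into 20 bins of this ratio, and 94.4% of those in the Grin1 bin were open in both replicates.

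The Grin1 and Grin2c promoters are shown because they set an open promoter with footprints beside a GC-rich one without a peak. Both are the 250 bases before the RefSeq start (GRCm38.p6, both on the minus strand, 5′ to 3′), Grin1 at chr2:25319188-25319437 and Grin2c at chr11:115267244-115267493. Capitals mark bases that lay in a footprint, a short protected stretch inside a cut region, in both replicates.
Grin1: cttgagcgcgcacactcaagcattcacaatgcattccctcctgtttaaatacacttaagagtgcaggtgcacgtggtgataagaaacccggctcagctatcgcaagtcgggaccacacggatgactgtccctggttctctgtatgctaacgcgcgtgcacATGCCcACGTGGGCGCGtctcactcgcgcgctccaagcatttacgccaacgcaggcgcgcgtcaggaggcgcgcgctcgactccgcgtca
Grin2c: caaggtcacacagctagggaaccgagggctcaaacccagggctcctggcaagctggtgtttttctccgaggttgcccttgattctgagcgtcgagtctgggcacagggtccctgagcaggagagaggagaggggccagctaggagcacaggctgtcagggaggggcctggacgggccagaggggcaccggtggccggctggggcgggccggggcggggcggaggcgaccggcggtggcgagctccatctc
The Grin1 stretch held 16 bases footprinted in both replicates, and the Grin2c stretch held none. Footprints are read inside cut regions and Grin2c had no peak there, so their absence says nothing about bound proteins. The capitals in Grin1 overlap a CACGTG E-box at chr2:25319267-25319272, a string chosen after the sequences were seen, which 7.91% of the 16646 shared promoter regions hold on either strand within their central 200 bp. A GC box (GGGCGG, either strand; bound by Sp factors) at chr2:25319174-25319179, just downstream of the 5′-most TSS, also overlapped a footprint in both replicates. The GC box is common, at 54.9% of shared promoter regions, and 4 of the family's 7 shared promoter regions held it. In the RefSeq promoter table, which matched 4 of the 7 genes, the 300-base windows of Grin1 and Grin2c held a GC box, against 35.7% of 32851 promoters.

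Grin2a, which encodes the GluN2 subunit of mature forebrain synapses (chr16:9567898-9995560, minus strand), had an open start that was spread over several peaks. The tallest, at chr16:9993761-9994000, had heights of 1.93 in replicate 1 and 1.35 in replicate 2, at percentiles 28.4 and 31.5 of open promoters. It lay 1.68 kb inside the gene from the 5′-most TSS and 270 bp from an annotated internal TSS. A second shared region over the 5′-most TSS (chr16:9995301-9995900, 600 bp wide) reached 1.82 and 1.28. Between them replicate 1 had a 1020-bp region (chr16:9994261-9995280) of height 1.08 that replicate 2 held only in the longer of its peak lists, at 0.581. A last promoter peak at the TSS 3.03 kb into the gene was seen in replicate 1 alone, at 0.540. Thus both replicates showed 2 separate summits near the start of Grin2a, and replicate 1 also showed the stretch between them.

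Grin2b, the gene of the early forebrain GluN2 subunit (chr6:135713233-136173511, minus strand), likewise had its tallest promoter peak downstream of the first TSS. This region (chr6:136172181-136172580, in the first intron of the transcript with the longest coding sequence) had heights of 1.98 and 1.28 in replicates 1 and 2, at percentiles 29.3 and 29.5. It lay 1.13 kb from the 5′-most TSS and 292 bp from another annotated TSS. A region over the annotated TSS chr6:136173377 (chr6:136173141-136173478) reached 1.45 and 1.17. The next one upstream (chr6:136173581-136173780) reached 1.47 and 0.979. The 5′-most TSS, chr6:136173511, lay in the gap between these regions. All 3 regions were present in both animals. In the region chr6:136173141-136173478, 12.4% of the 25-base words occur more than once in the genome, and the part of mapping in its height was not tested.

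Grin3a, a glycine-binding GluN3 subunit gene (chr4:49661611-49845744, minus strand), had heights of 2.11 in replicate 1 and 0.851 in replicate 2 at chr4:49845661-49845980. The percentiles were 31.2 and 15.8. Its ratio of replicate 2 to replicate 1 was −1.31 on the log2 scale, the lowest of the family's shared promoter regions, which ranged up to −0.31. Over all promoter regions paired 1 to 1 between the replicates, the median was −0.73 and the 5th percentile −1.37, so Grin3a lay inside that range. Replicate 2 had a further promoter peak of 0.547 at chr4:49845321-49845640 where replicate 1 had no called peak. Replicate 1 was nonetheless cut there. All 1001 bp around the TSS chr4:49845549, which take in this stretch, had a false discovery rate of the cut rate under 0.05. Downstream in the first exon, a region at chr4:49844301-49844560 reached 0.829 and 0.425 in both.

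Among the 4 open promoters Grin1 came first and Grin2b the third in both animals, while Grin2a and Grin3a changed places. In replicate 1 Grin1 was followed by Grin3a, Grin2b and Grin2a. In replicate 2 it was followed by Grin2a, Grin2b and Grin3a. The mean heights were 3.17 ± 1.25 for Grin1, 1.64 ± 0.407 for Grin2a, 1.63 ± 0.491 for Grin2b and 1.48 ± 0.891 for Grin3a (SD, n = 2). These SDs take in the offset between the libraries, a median of −0.73 on the log2 scale over all promoter regions paired 1 to 1. Within the libraries the last 3 stood in opposite orders, so the replicates shared no order among them.

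The 3 genes without a promoter peak were looked at in the deposited track of false discovery rates (FDR), which lists the stretches with an FDR of the cut rate under 0.05. At the promoters of Grin2c and Grin3b no base was listed in either replicate. At Grin2d, 38 bp at the internal TSS chr7:45870429 were listed in replicate 1, at a lowest FDR of 0.0315, and none in replicate 2. Of the 8230 coding genes without a promoter peak in either replicate, 85.8% were likewise listed in neither. The lowest FDR at the open promoters was 1.05e-27 and 1.07e-22 for Grin1 in replicates 1 and 2. It was 3.71e-24 and 6.62e-14 for Grin3a, 2.25e-17 and 1.77e-10 for Grin2a, and 2.82e-15 and 2.64e-08 for Grin2b.

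**Figure D2:**
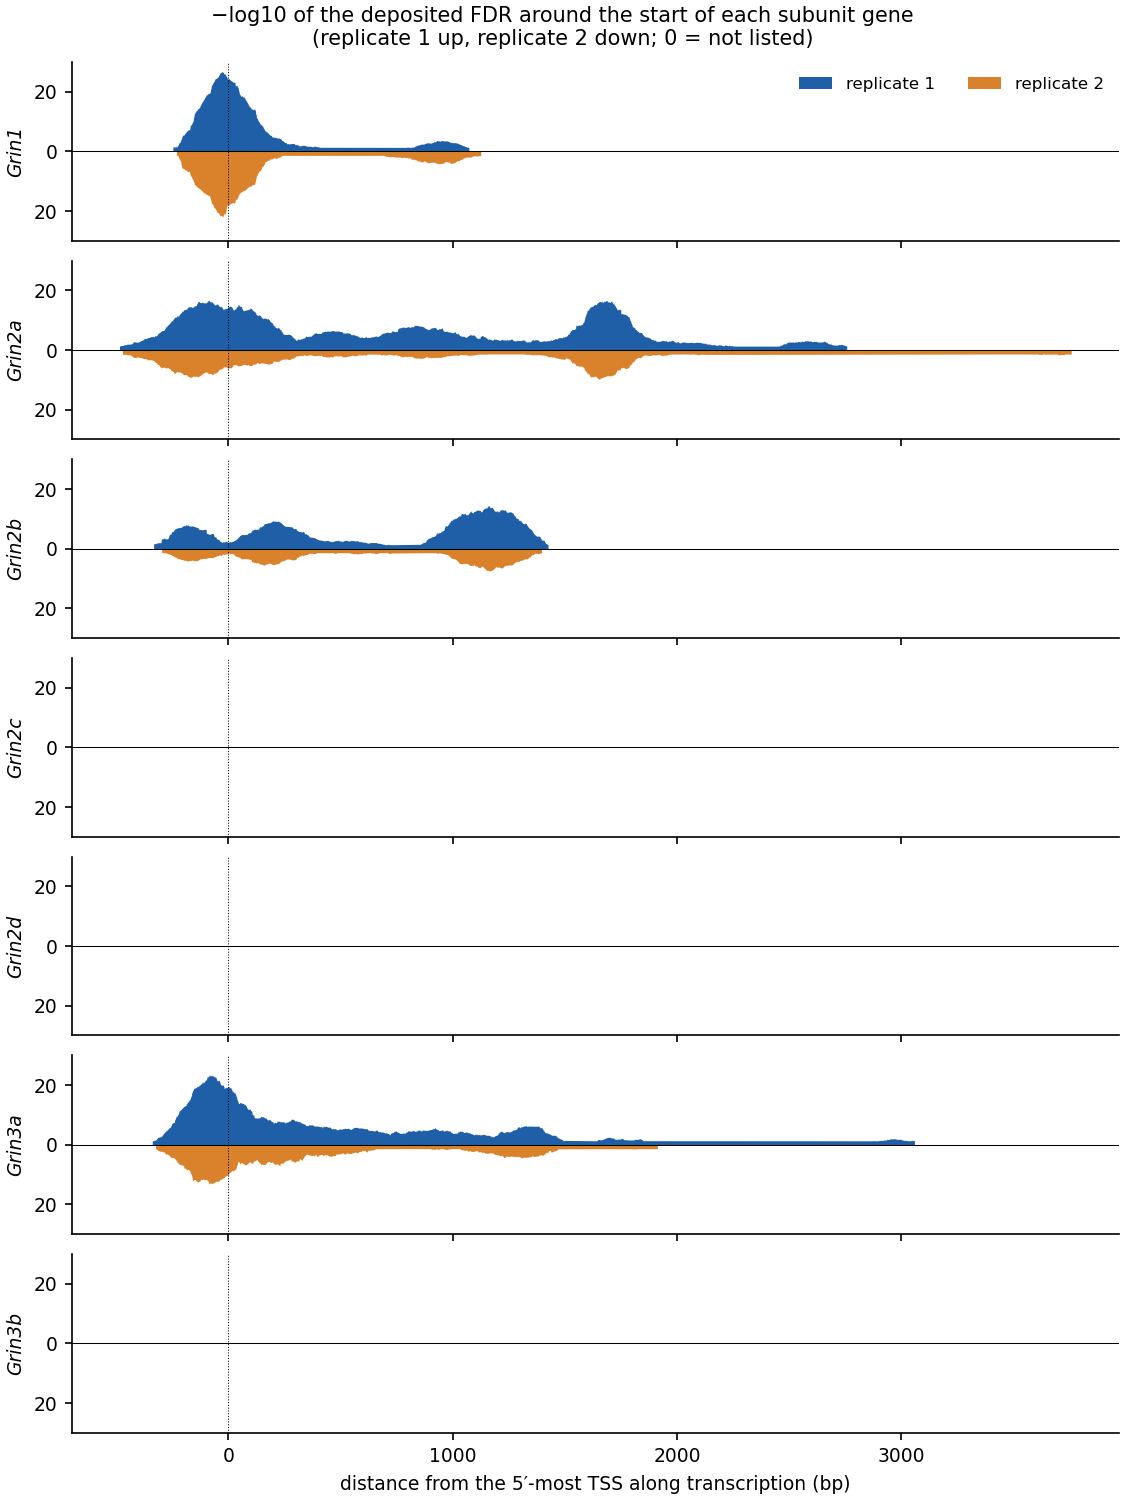
Deposited FDR as −log10 (y axis; replicate 1 upward in blue, replicate 2 downward in orange, 0 where no stretch was listed) against distance along transcription from the 5′-most TSS (x axis, bp). Grin1 shows 1 main summit at the start, Grin2a and Grin2b show several within 2 kb, Grin3a falls off slowly into the gene, and Grin2c, Grin2d and Grin3b show none in this window.

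Sequence content at the 5′-most TSS differed between the 3 genes without a promoter peak. The observed over expected CpG ratio at the 5′-most TSS was 0.710 for Grin2c, and 87.0% of genes in the same 1 of 20 CpG bins were open. For Grin3b it was 0.614, with 79.0% of the bin open. For Grin2d it was 0.087, with 6.65% open. Grin2c and Grin3b thus lacked a peak in CpG classes where most genes had one. At the open starts the ratio ran from 0.431 for Grin2b, in a bin with 51.8% open, to 0.975 for Grin1. The bins rest on the 5′-most TSS, and other TSSs gave other ratios. For Grin2d the ratio was 0.418 at chr7:45867129, the start of the transcript with the longest coding sequence, and 0.323 at chr7:45870429. It was 0.518 at the internal Grin2c TSS, and 0.375 and 0.478 at those of Grin3b.

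Grin2d, a GluN2 subunit gene (chr7:45831883-45878378, minus strand), was not closed along its whole length. A region at chr7:45866041-45866300 had heights of 2.26 in replicate 1 and 1.01 in replicate 2. It overlapped the first exon of the transcript with the longest coding sequence by 189 bp and lay 829 bp inside the nearest Grin2d TSS (chr7:45867129), beyond the 500 bp limit. When the window was widened to 2000 bp, Grin2d was open in both replicates, and the family's count became 5 of 7 against 59.8% of all genes. The sequence is shown because it is the only shared Grin2d region that is not a neighbour's promoter (GRCm38.p6, minus strand, capitals footprinted in both replicates).
Grin2d: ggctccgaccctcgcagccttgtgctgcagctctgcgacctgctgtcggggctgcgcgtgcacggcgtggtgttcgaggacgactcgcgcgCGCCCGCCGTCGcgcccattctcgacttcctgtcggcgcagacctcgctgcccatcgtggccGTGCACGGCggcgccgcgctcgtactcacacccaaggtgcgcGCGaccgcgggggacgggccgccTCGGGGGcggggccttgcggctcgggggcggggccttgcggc
Its GC content was 76.2%, with 31 bases footprinted in both replicates. A GC box in it at chr7:45866073-45866078 overlapped a footprint in both. The other shared regions of the Grin2d locus were promoters of its neighbours, among them Kdelr1, whose promoter (3.07 and 1.82) lies within Grin2d, and Cyth2 (8.05 and 7.61).

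The loci of the short genes were also filled by their neighbours. Each locus took in the gene and 20 kb beyond either end. In the Grin2c locus (58.1 kb) the tallest region was the Fdxr promoter (6.32 and 7.46), and a region in an Fdxr intron, at −3.45 kb from the Grin2c start (chr11:115270581-115270800), reached 2.29 and 1.38. No region lay inside Grin2c (chr11:115249169-115267243). The Grin3b locus (46.5 kb) held 8 shared regions, of which 6 were promoters of neighbours such as Wdr18 (8.59 and 7.43) and Abca7 (4.78 and 2.95), and none lay in Grin3b (chr10:79970715-79977190). In the Grin1 locus (68.0 kb) a small shared region in the first intron (chr2:25318158-25318347) reached 1.08 and 0.858.

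**Figure D3:**
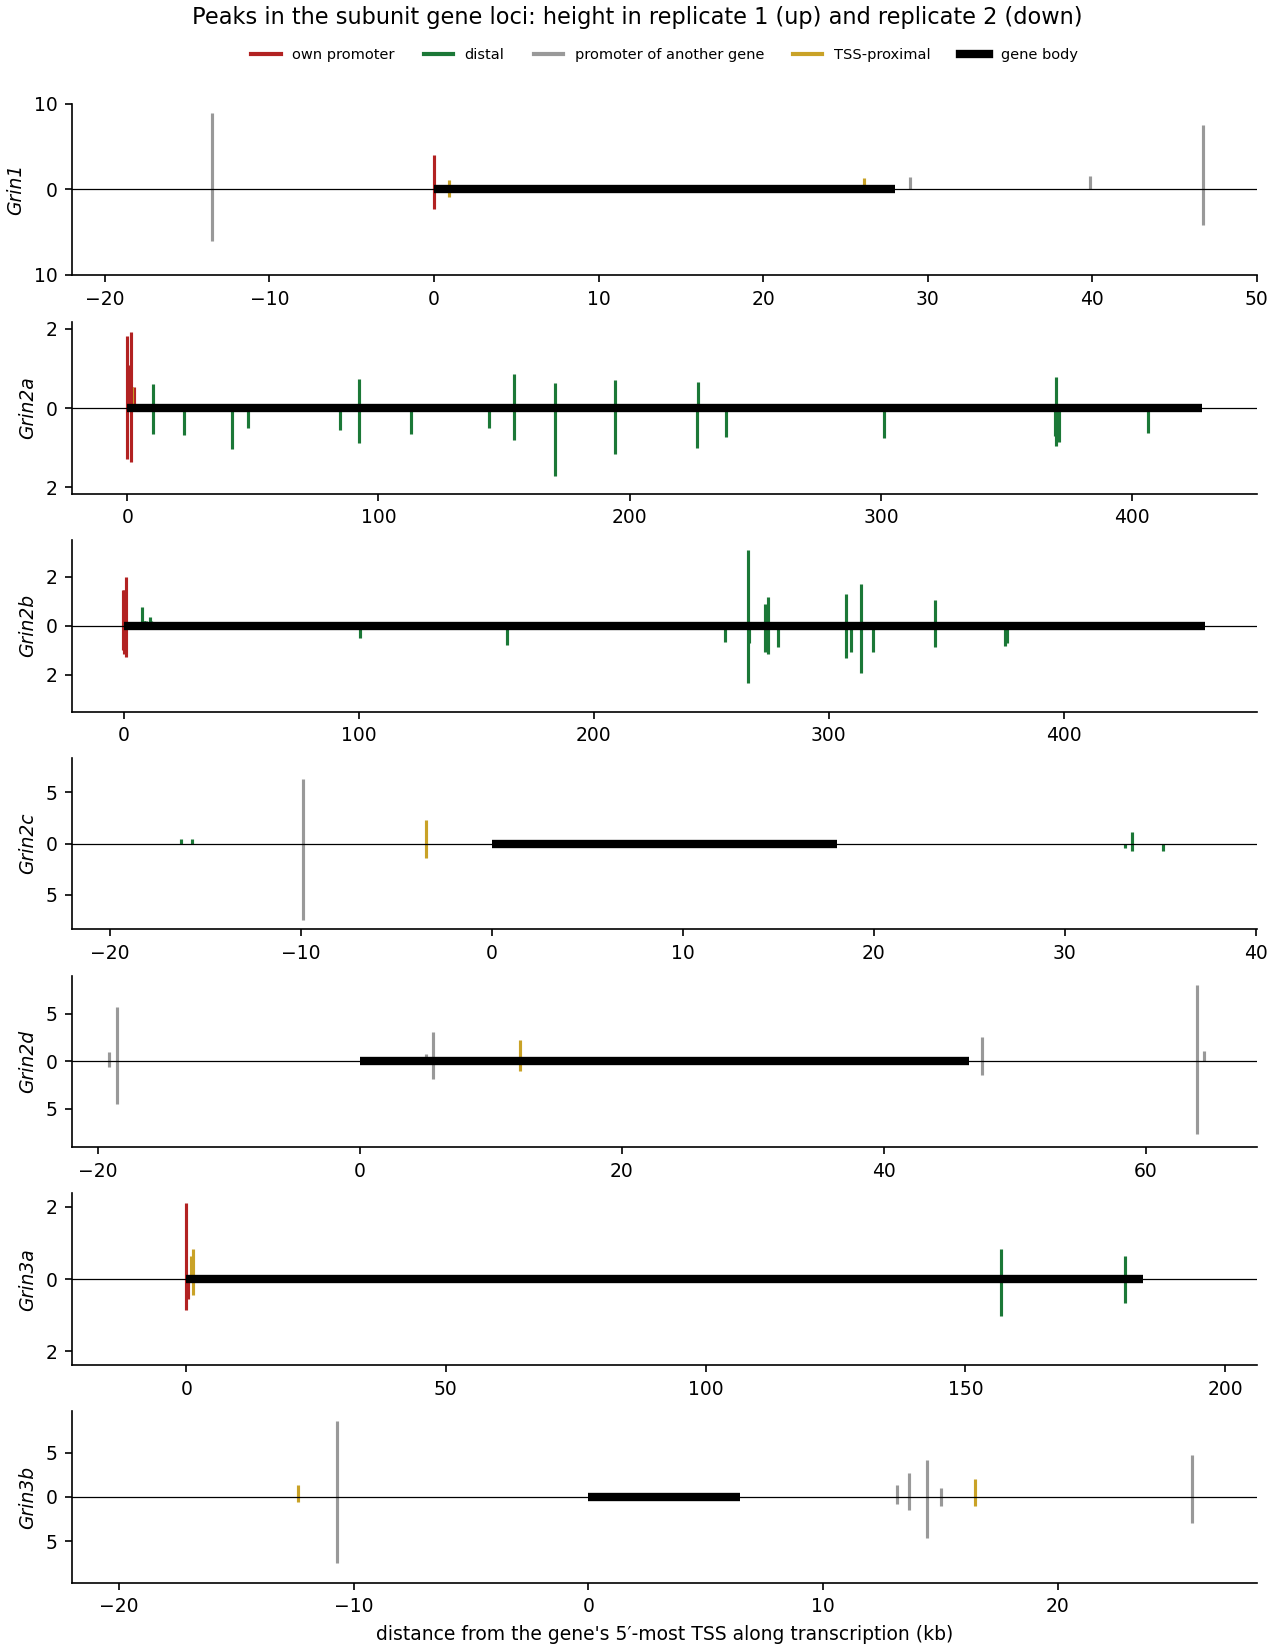
Peaks in the 7 loci by distance along transcription from the 5′-most TSS (x axis, kb; each panel has its own scale), with the height in replicate 1 drawn upward and in replicate 2 downward (y axis, authors' signal). Black bars are gene bodies and colours give the class of a region. The distal regions with a peak in both replicates are spread along Grin2a, lie 266 to 345 kb into Grin2b, and are absent from the Grin1, Grin2d and Grin3b loci.

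Distal regions, over 2000 bp from every annotated TSS, were found mostly in the 2 long GluN2 genes. Grin2a and Grin2b had 6 shared distal regions each, Grin3a had 2, Grin2c had 1 and the other 3 genes had none, for a total of 15. At least 1 shared distal region was found in 4 of the 7 loci, against 46.7% of all coding genes. Long loci hold more regions, so each was set beside the 200 genes of nearest locus length. The 6 of Grin2a (467.7 kb) exceeded 137 of its 200 and were exceeded by 51, with a median of 4. The 6 of Grin2b (500.3 kb) exceeded 126 and were exceeded by 58, also with a median of 4. Grin3a, at 2 in 224.1 kb, equalled the median of 2 of its length class. The family's counts therefore lay within the range of genes of their length.

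**Figure D4:**
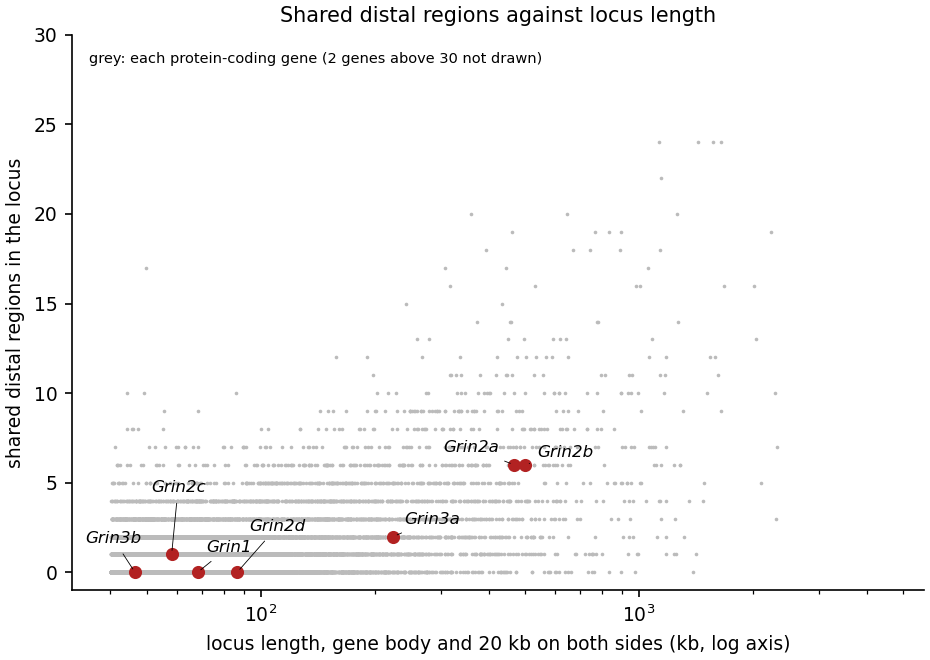
Shared distal regions per locus (y axis) against locus length, gene body with 20 kb on both sides (x axis, kb, log axis), for all coding genes (grey) and the 7 subunit genes (red); 2 genes above 30 regions are not drawn. Grin2a and Grin2b sit at 6 among genes of like length that mostly hold fewer.

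In Grin2b all 6 shared distal regions lay in 1 group of 79.9 kb (chr6:135828036-135907900), 266 to 345 kb into the gene. This grouping depends on the shorter peak lists. With the longer lists the locus had 17 shared distal regions, 9 of them in that span and 8 outside it. Of the 6, 5 lay in the fourth intron and 1 in the fifth intron of the transcript with the longest coding sequence. The tallest (chr6:135907621-135907900) had heights of 3.12 in replicate 1 and 2.33 in replicate 2, at the 97.9th percentile of the 23895 shared distal regions by geometric mean. It was taller than the Grin2b promoter in both animals. The second (chr6:135859541-135859780) reached 1.70 and 1.94, at the 92.9th percentile, and the third (chr6:135865921-135866200) 1.29 and 1.33, at the 80.6th. The remaining 3 ran from 0.885 to 1.18 in the replicates. The nearest annotated TSS to all 6 was that of Gm14330, within the Grin2b gene body, not that of Grin2b. The span held 4 more regions that only replicate 2 had in its shorter list, and replicate 1 had 3 of these in its longer list.

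In Grin2a the 6 shared distal regions were spread out, from 10.2 to 370 kb into the gene, with gaps of 16.4 to 176 kb. All lay in introns, 5 in the third and 1 in the eleventh of the transcript with the longest coding sequence, and all had a Grin2a TSS as the nearest. By geometric mean of the replicates the tallest (chr16:9825141-9825420) had a height of 0.643 in replicate 1 and 1.72 in replicate 2. It was taller than the promoter in replicate 2 but the fifth of the 6 in replicate 1, where chr16:9841581-9841823 led with 0.846, against 0.810 in replicate 2. The log2 ratio of 1.42 of chr16:9825141-9825420 was above the 95th percentile of distal regions paired 1 to 1, which was 0.87. The next were chr16:9801401-9801640 at 0.699 and 1.17 and chr16:9625721-9626080 at 0.773 and 0.959. These 3 stood at the 66.7th, 54.5th and 50.5th percentile, lower than the leading regions of Grin2b.

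Grin3a had a region in its sixth intron (chr4:49688745-49688960) with heights of 0.842 and 1.03, at the 56.7th percentile. Its other distal region (chr4:49664941-49665144), in the last exon, reached 0.639 and 0.655, at the 26.4th percentile. The nearest TSSs were those of Ppp3r2 and Rnf20. The Grin2c locus had its only one (chr11:115233575-115233878, heights 1.09 and 0.723) in an intron of the neighbour Tmem104, nearest to the TSS of Gm25837.

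**Figure D5:**
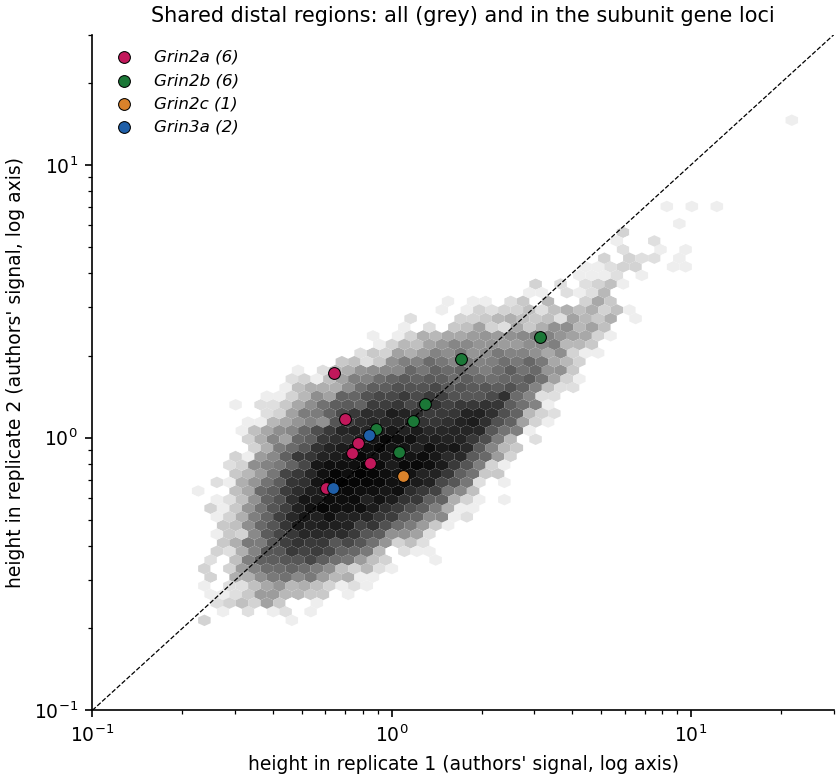
Height in replicate 2 (y axis) against replicate 1 (x axis; both authors' signal, log axes) for all 23895 shared distal regions (grey, darker where denser) and the 15 in the subunit gene loci (coloured points). The dashed line marks equal heights. The tallest coloured point is the Grin2b region at 3.12 and 2.33, and the point farthest above the line is the Grin2a region at 0.643 and 1.72.

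The leading distal regions by geometric mean are shown for their footprinted bases (GRCm38.p6, all on the minus strand, the strand of the 3 genes; capitals footprinted in both replicates). They are chr16:9825141-9825420 in Grin2a, chr6:135907621-135907900 and chr6:135859541-135859780 in Grin2b, and chr4:49688745-49688960 in Grin3a.
Grin2a: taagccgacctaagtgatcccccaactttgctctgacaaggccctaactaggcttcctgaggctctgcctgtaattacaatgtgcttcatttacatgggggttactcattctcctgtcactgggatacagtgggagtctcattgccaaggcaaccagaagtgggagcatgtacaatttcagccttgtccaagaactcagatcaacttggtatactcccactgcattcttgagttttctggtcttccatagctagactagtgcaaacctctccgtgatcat
Grin2b, tallest: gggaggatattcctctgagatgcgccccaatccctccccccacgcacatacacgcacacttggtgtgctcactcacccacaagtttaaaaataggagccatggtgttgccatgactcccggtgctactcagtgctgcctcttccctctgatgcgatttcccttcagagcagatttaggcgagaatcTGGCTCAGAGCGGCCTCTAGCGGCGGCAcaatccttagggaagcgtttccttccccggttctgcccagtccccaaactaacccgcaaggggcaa
Grin2b, second: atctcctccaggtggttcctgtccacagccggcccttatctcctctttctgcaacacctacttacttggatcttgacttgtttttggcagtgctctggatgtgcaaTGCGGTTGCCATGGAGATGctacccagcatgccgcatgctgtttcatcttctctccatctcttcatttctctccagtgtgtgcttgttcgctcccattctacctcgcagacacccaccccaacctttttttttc
Grin3a: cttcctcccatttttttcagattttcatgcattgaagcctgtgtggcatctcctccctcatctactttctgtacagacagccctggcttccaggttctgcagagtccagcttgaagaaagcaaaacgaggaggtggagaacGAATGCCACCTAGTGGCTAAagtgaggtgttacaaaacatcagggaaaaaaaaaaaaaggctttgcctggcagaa
The tallest Grin2b region had 1 stretch of 28 bases footprinted in both replicates, the second 19 bases and the Grin3a region 20, while the Grin2a region had none in both. The second Grin2b footprint holds GTTGCC, an arm of the X-box that RFX factors bind, at chr6:135859665-135859670. The same string lies in the tallest Grin2b region, in a footprint of replicate 1 alone, and in the Grin2a region at chr16:9825267-9825272, outside a footprint. On both strands and in the central 200 bp, 4 of the family's 15 distal regions and 11.1% of all 23895 held it. The footprints of the tallest Grin2b region (chr6:135907692-135907698) and of the Grin3a region (chr4:49688804-49688810) both hold CCNCTAG, the first letters of a common form of the CTCF core. It was held by 3 of the 15 and by 13.7% of all. Both strings were chosen after the sequences were seen, and a match is a description of letters, not of a bound factor. Of the other strings searched, an AP-1 string (TGANTCA) at chr16:9903261-9903267 and an E-box (CAGATG) at chr16:9801473-9801478, both in Grin2a distal regions, and a GC box at chr6:135899441-135899446 in Grin2b overlapped a footprint in both replicates. The AP-1 string and the E-box occur in 15.2% and 23.4% of all shared distal regions, and the GC box in 2391 of the 23895. In the Grin2b promoter regions a CAGATG at chr6:136172294-136172299 and a GC box at chr6:136173344-136173349 did so too.

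Footprints were found in all 7 shared promoter regions and all 15 shared distal regions of the family. Over all peaks of a replicate, shared or not, a footprint was found in 86.3% and 84.2% of promoter peaks in replicates 1 and 2. For distal peaks the share was 87.8% and 83.9%, so the family's counts lie near the background. The promoter peaks held 34 footprints in replicate 1 and 37 in replicate 2, a mean of 4.86 and 5.29 per region. Over all promoter peaks the mean was 3.51 and 3.07, without regard to peak width. Per 100 bp of peak the family's promoters held 1.74 and 1.69, against 1.37 and 1.33 over all promoter peaks. The family's peaks here are those of shared regions, whereas the background also holds unshared peaks. The part of this unlike choice in the difference was not tested. The distal peaks held 31 and 38, a mean of 2.07 and 2.53, against 2.25 and 1.97 over all distal peaks, and per 100 bp 1.25 and 1.05, against 1.25 and 1.04. Overlap between replicates was counted over the whole of each shared region, so it takes in footprints outside that replicate's own peaks. In the promoter regions 25 of 39 replicate 1 footprints overlapped one of replicate 2, and 24 of 37 the other way. The background was 55.7% and 69.1% of footprints in promoter regions. In the distal regions 18 of 41 and 19 of 40 overlapped, against 49.6% and 56.9%.

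Peaks seen in 1 animal differed between the long genes. In Grin2a, 12 distal peaks were found only in replicate 2 and 1 only in replicate 1, and 4 of the 12 had a replicate 1 peak in the longer list. These 12 were 66.7% of the replicate 2 distal peaks in Grin2a. Over the genome 51.8% of the 49920 distal peaks of replicate 2 and 28.9% of the 33897 of replicate 1 had no peak in the other. In Grin2b, 9 of 15 were found only in each, 60% in both replicates. All 9 of replicate 1 stood in a row within 4.00 kb of the second intron (chr6:136161721-136165720), 7.88 to 11.8 kb from the 5′-most TSS. They were low, from 0.0993 to 0.345 for 8 of them and 0.760 for the last, and 8.72% of all replicate 1 peaks were at or below 0.345. Replicate 2 had 2 of the 9 in its longer list. In a different one, chr6:136163987-136164080, 90% of the 25-base words occur more than once in the genome.

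Between the libraries, the family's 7 shared promoter regions had a median log2 ratio of replicate 2 to replicate 1 of −0.58, and all 7 were below 0. Its 15 shared distal regions had a median of 0.12, from −0.60 to 1.42. Over the genome the medians were −0.73 for promoter regions and −0.20 for distal regions paired 1 to 1. The promoter regions were thus lower in replicate 2 in the family as over the genome, and 1 library against 1 gives no test of these differences.

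The wider NMDA receptor pathway had open promoters for 41 of 47 listed genes, beside the 56.2% of all coding genes. The median geometric mean of the 2 heights over open promoters was 3.13, against 2.80 over all open promoters and 1.60 over the 4 open subunit genes. Scaffolds and receptor-bound kinases were open for 14 of 15, and only Shank1, a postsynaptic scaffold, was not called, though both longer lists held it at 0.971 and 1.15. Trafficking and auxiliary genes were open for 9 of 9. Genes of glycine and D-serine supply were open for 3 of 5. The exceptions were Dao, which degrades D-serine, with no peak in any list, and Slc7a10, a glial and neuronal transporter of small amino acids, with 0.548 in the longer list of replicate 1 alone. Calcium-dependent signalling genes were open for 8 of 9, where Nos1, the neuronal nitric oxide synthase, had 0.838 in replicate 1 alone. Transcription factors were open for 7 of 9, and Rest (1.20) and Tbr1 (0.691) had a peak in replicate 1 alone. The longer lists of both replicates held Nos1, Rest and Tbr1. The tallest promoters by geometric mean of the replicates were those of Sp1 (8.91 and 9.78), Calm3, a calmodulin gene (9.86 and 5.91), and Ppp3ca, a calcineurin subunit gene (10.5 and 5.43).

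The other glutamate receptor families are set beside the NMDA receptor genes as counts. Of the AMPA and kainate receptor genes 8 of 9 were open in both replicates, with a median geometric mean of 1.42, and Grik3 had a peak of 1.04 in replicate 1 alone. Of the metabotropic receptor genes 4 of 8 were open, with a median of 1.02. Among these, Grm4 (1.22) and Grm8 (0.833) had a peak in replicate 1 alone. Over all coding genes 56.2% were open in both replicates, near the share of the metabotropic receptor genes. In replicate 1 the counts were 9 of 9 and 6 of 8, against 61.6% of all genes. Both longer lists held 9 of 9 and 5 of 8, against 61.0%. These lists were added after the files were seen, and differences between the families were not tested.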

How the data were processed

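DNase-seq of 2 left cerebral cortex samples was used. Per the file notes, the authors derived each list from 1 replicate's filtered alignment on mm10. The files come with an aligner, callers and a scaling not given in the sources used here. Peak height is a signal deposited by the authors. Every height was a whole multiple of 1 step, 0.00432 in replicate 1 and 0.00675 in replicate 2. The FDR track holds deposited q-values under 0.05, and the footprint lists hold positions with 1 constant value. Of the 2 peak lists per replicate, which the notes do not tell apart, the shorter was the main one and the longer an alternative.

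Overlapping peaks of a list were joined at their highest height. Peaks of both replicates overlapping by 1 bp or more made a shared region. Genes came from GENCODE M21 and sequence from GRCm38.p6 and RefSeq, with pandas 2.3.3 and pysam 0.24.0. Hybrid animals carry CAST/EiJ alleles that the reference sequence does not show. The code of the promoter and region calls was run on simulated peaks planted at gene starts. Their recovery was set by the planting, so this says nothing about the accuracy of the calls. The rule named all 7 members, all their promoter regions, the 3 tallest shared distal regions per gene, and of the pathway list the genes not open in both replicates and the tallest 3. The members and lists were chosen with earlier results of these data known. With 1 group of 2 samples no test was run, and depth is unknown.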

Additional observations from a re-analysis of the deposited data

How the results depend on the processing

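The call of 4 open subunit promoters held at 250 bp, with the longer lists and with a reciprocal overlap of 50%. It also held among the taller 50% of peaks and without either replicate, and became 5 at 2000 bp. Without 1 replicate a peak in both is no longer asked for, and the 2000 bp window keeps every peak. Neither change can lose a called gene, so neither checks for a loss. The pathway count of 41 ranged from 38 to 45. The 15 shared distal regions became 36 with the longer lists and 6 among the taller 50% of peaks. Without 1 replicate the distal regions of the other numbered 27 to 38, since no overlap is then asked for. They ranged from 11 to 21 under a reciprocal overlap, no flank, 50 kb flanks and a limit of 500 bp. The 70 footprints per replicate became 120.5 with the longer lists. The median log2 ratio of heights of −0.05 became 0.12 with the longer lists and 0.40 when centred on the median of all paired peaks, which is −0.45. Centred in this way the promoter regions stood at −0.13 and the distal regions at 0.57, and the longer lists put the distal regions at 0.26. The median of all paired peaks is not that of either class, so these centred values do not set the family against its own class. Uncentred, the family's promoter median of −0.58 lay above the −0.73 of all promoter regions. Its distal median of 0.12 lay above the −0.20 of all distal regions. The centring subtracts 1 constant and the longer lists add lower peaks. The longer lists and the 2000 bp window left the mean promoter heights of Grin1, Grin2a, Grin2b and Grin3a unchanged. The wider window keeps the same peaks, so it can only raise a height and is a weak check. At 250 bp Grin2a fell from 1.64 to 1.55 and Grin2b from 1.63 to 1.32, and the other means stayed. These moves were less than the SD of the replicates, which takes in the offset between the libraries. Leaving out 1 of 2 animals cannot move a mean by more than that SD and is no check. No paired analysis was possible because the 2 samples form 1 group. The unknown depth and 2 animals limit the order of the promoter heights.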
